A study of Malus domestica with 99 samples.

Results

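The 139 transcripts described here are those of apple fruit cortex that stood lower in fruit treated with 1-MCP than in control fruit at day 1 after harvest in each of 3 cultivars. A transcript was taken when its predicted RefSeq entry (identifier starting with XM_) was listed for all 3 cultivars, its control level at day 1 was at least 4 on the log2 scale in each, and its day 1 difference (1-MCP minus control, log2) was at or under -0.8 in each. These are 139 of 26306 such entries (0.528%) and of the 13324 whose control level reached the floor of 4 (1.04%). The mirror-image rule, at or over 0.8 in each cultivar, took 81 entries. A further 20 entries of other identifier types met the same thresholds, NAC1, PSY2 and BGAL101 among them, and are not members.

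Ethylene is the gaseous hormone that drives ripening in climacteric fruit such as apple. It binds membrane receptors that, without ethylene, keep the response pathway off, and binding lifts that repression so that transcription factors can act on their target genes. 1-MCP (1-methylcyclopropene) occupies these receptors, so treated fruit respond poorly to ethylene and ripen late, which is why it is used to store apples.

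Golden Delicious, Granny Smith and Fuji fruit were sampled at harvest and then, as control and as 1-MCP fruit, at days 1, 7, 14 and 21 and at 2 months. 1-MCP was given once, overnight, to harvested fruit in a closed container, so the day 1 fruit were sampled soon after it. The labels do not say whether control fruit were enclosed too, nor how the fruit were stored. Each of the 33 groups has 3 labelled libraries, described as biological replicates, and the study concerns the crosstalk of ethylene with auxin during ripening in storage.

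The deposited values are the authors' log2 means, 1 per group, so no spread between replicate fruit is known for any level, and the sequencing depth is unknown. Tests therefore used the 3 cultivars as replicates, in limma across 20999 entries with Benjamini-Hochberg adjustment, and a change was called at an adjusted p under 0.05. Such a p weighs a difference against its spread between cultivars, not between fruit, and standard errors (SE) are over n = 3 cultivars unless stated. A lower value in bulk cortex can come from fewer cells of a type or from less RNA per cell, which cannot be told apart. ANS and UFGT1, which act in anthocyanin synthesis in red skin, lay between -1 and -0.67 in all 33 columns, where -1 is the value of a transcript with no reads. The other markers looked up were detected. DHN2, taken for water stress or seed, ranged from 4.35 to 14.31. MADS8 and AP1, taken for flower, ranged from 7.04 to 8.19 and from 4.60 to 6.75. Whether cortex itself expresses these genes was not tested, nor whether tissue other than cortex was present.

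The members were chosen by the day 1 differences and day 1 control levels, which are therefore given as a description. The day 1 difference, averaged over the cultivars, ran from -8.03 to -0.84 with a median of -1.64. The median was lowest in Granny Smith (-1.87), followed by Golden Delicious (-1.65) and Fuji (-1.37). The 3 members nearest to the threshold had -0.80, -0.80 and -0.81 in the cultivar with their highest difference, and the 3 nearest entries outside had -0.80, -0.78 and -0.78. Granny Smith held the lowest of the 3 differences in 72 members (51.8%), Golden Delicious in 47 (33.8%) and Fuji in 20 (14.4%). Of all tested entries below 0 in each cultivar, the shares were 44.3%, 36.1% and 19.6%, in the same ranking.

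The day 1 difference stood on different ground in the 3 cultivars when set against harvest. In Granny Smith 131 of the 139 members were above harvest in day 1 control fruit, by a median of 1.01, and 1-MCP fruit lay below harvest by a median log2 difference of -0.91. In Golden Delicious 45 members were above harvest in control fruit, where the median was -0.26, and in 1-MCP fruit it was -2.00. In Fuji 58 were above, and the medians were -0.17 in control and -1.59 in 1-MCP fruit. So in Granny Smith controls stood above and treated fruit below harvest, while in the other cultivars the medians of control fruit stayed near harvest. In 77 members treated fruit were at least 0.8 below harvest in every cultivar, in 3 members control fruit were at least 0.8 above harvest in every cultivar, and 59 were mixed. Over all tested entries the day 1 medians against harvest lay between 0.01 and 0.04 in both treatments of each cultivar. The shares of all tested entries above harvest, or in these classes, were not computed. Harvest columns are shared by both treatments, and the day 1 columns are those of the rule, so none of this was tested.

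The members stood lower at harvest in Granny Smith than in the other cultivars. On levels set across 3 separately deposited tables, whose joint normalization is not stated, Golden Delicious exceeded Granny Smith at harvest in 126 of 139 members (90.6%), against 49.4% of all tested entries, with a median log2 difference of 1.26. Fuji exceeded Granny Smith in 123 members (88.5%), against 49.0%, with a median of 1.02. In day 1 control fruit the same shares were 59.7% and 49.6% of members, against 48.1% and 49.3% of all tested entries. The rule used these day 1 control levels in every cultivar, so the change from harvest was not tested. ACO1, the ACC oxidase that makes ethylene in its final step, had a harvest level of 13.17 in Golden Delicious, 11.77 in Fuji and 5.67 in Granny Smith. Its part in the harvest levels of the members was not tested.

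**Figure D1:**
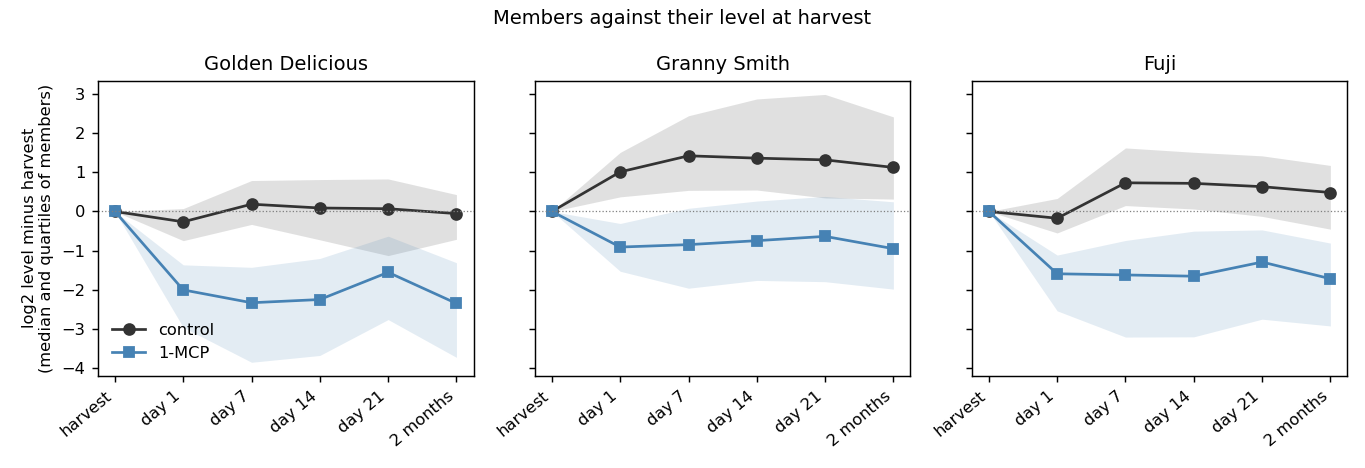
Median (line) and quartiles (band) of the log2 level minus the harvest level of the same cultivar for the 139 members, in control fruit (circles) and 1-MCP fruit (squares), against time after harvest, 1 panel per cultivar. In Granny Smith the control median lies between 1.01 and 1.42 and the 1-MCP median between -0.95 and -0.64, while in Golden Delicious the control median stays between -0.26 and 0.19 and the 1-MCP median between -2.35 and -1.56.

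Most members were still lower in treated fruit over days 7, 14 and 21, which the rule did not use. On the mean of these days 121 of 139 members (87.1%) were called lower, where 15.8% of all tested entries were, and 1 was called higher, where 18.5% were. The median difference was -2.26, against 0.03 over all tested entries, and single members ran from -8.70 to 1.55. At least a 4-fold lower level was reached by 79 members, of 549 tested entries that did so. The 3 cultivar means of treated fruit lay below all 3 of control fruit in 107 members (77.0%; all entries 14.4%), across the separate tables. The difference was below 0 in each cultivar in 127 members (91.4%; all entries 32.3%). Leaving out 1 cultivar or 1 day gave 89 to 125 lower calls.

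The later days one by one showed the same direction with falling counts. At day 7, 129 members were called lower (all entries 14.0%) and 0 higher (16.8%) by limma, with 0 higher also at an unadjusted p under 0.05. At day 14, 116 were lower (11.4%) and 2 higher (13.3%). At day 21, 100 were lower (7.35%) and 1 higher (9.23%), but the lower calls were 39 without Granny Smith and 21 without Fuji. With no filter on low values the lower calls were 66, 26 and 0 on these days, and without limma's trend and robust options 24 at day 21. Their median difference was -2.45, -2.37 and -1.86 on these days in turn. The day 1 thresholds, with the control floor of 4 taken at the time in question, were applied again to each later time. They were met by 117 members at day 7, 97 at day 14 and 87 at day 21. These are 89.3%, 77.6% and 70.7% of the 131, 125 and 123 members at or over that floor. Among all eligible entries 4.95%, 5.6% and 3.74% met them, so the members made up 17.9%, 13.1% and 17.7% of the entries below the threshold on those days.

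At 2 months 94 members were called lower by limma (all entries 3.81%) and 0 higher (4.37%). At an unadjusted p under 0.05 there were 126 lower and 1 higher. The median difference was -2.15, and 126 members (90.6%; all entries 22.6%) were below 0 in each cultivar. The 3 treated means lay below all 3 control means, across the separate tables, in 110 members (79.1%; all entries 9.11%). The adjusted count hung on which cultivars entered, since it was 5 without Granny Smith and 35 without Fuji. It was 0 with no filter on low values and 45 without limma's trend and robust options. The day 1 thresholds were met by 100 members at 2 months, 71.9% of the members and 19.1% of the 524 entries that met them. They are 78.1% of the 128 members at or over the control floor of 4 at that time, where 4.0% of all eligible entries met the thresholds. The thresholds were met at all 4 later times by 76 members, which are 54.7% of the members and 40.6% of 187 entries. They were met at none of the 4 by 16 members. A member also misses them when its control level falls under 4, even with its difference kept. LOC103416583 fell under that floor at each later time but was called lower over days 7 to 21, at -1.62 (limma adjusted p = 0.0148). The change of the difference from days 7 to 21 to 2 months was below 0 in 63 members and above 0 in 76. No member passed the test of that change in limma in either direction (0 deeper and 0 smaller, with 23 and 40 at an unadjusted p under 0.05 and a lowest adjusted p of 0.0701). Of all tested entries 0.00476% were called deeper and 0.0% smaller.

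**Figure D2:**
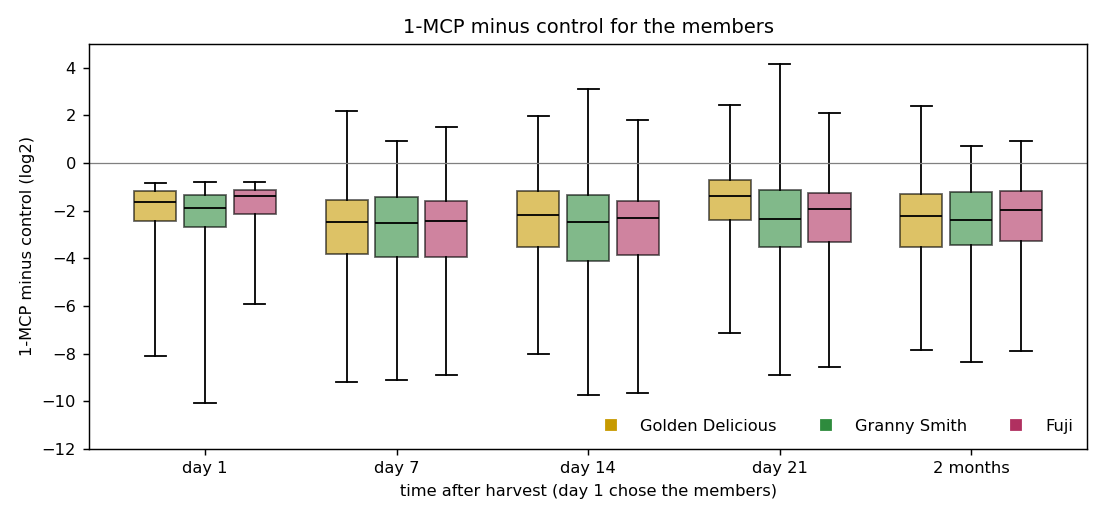
Box plots of the log2 difference, 1-MCP minus control, over the 139 members at each time in each cultivar (box, quartiles; line, median; whiskers, lowest and highest member). All members lie at or under -0.8 at day 1 because they were chosen there, and the later medians lie between -2.52 and -1.37, with Golden Delicious at day 21 the highest of these.

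Against harvest, the later fruit showed the split in another way. In control fruit over days 7 to 21, 34 members rose (all entries 6.75%) and 4 fell (8.66%) by limma, with a median difference of 0.73 against 0.07 for all entries. In 1-MCP fruit 77 members fell (12.1%) and 3 rose (12.8%), with a median of -1.42 against 0.09. Of these, 58 fell in 1-MCP fruit without a call in control fruit, and 15 rose in control fruit and fell in 1-MCP fruit. The shares of all tested entries with these 2 joint patterns were not computed. Both comparisons share the harvest columns. The 34 became 13 without Golden Delicious, 15 without Granny Smith, 5 without Fuji and 21 without day 7. The 4 became 0 without Golden Delicious and 2 without either Fuji or day 7. The 77 became 33 without Fuji, and the 3 became 6 without Golden Delicious, 0 without Fuji and 1 without day 21. With no filter the counts were 0 and 0 in control fruit and 46 lower and 0 higher in 1-MCP fruit. Without the trend and robust options they were 9 higher and 1 lower in control fruit and 1 higher in 1-MCP fruit.

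**Figure D3:**
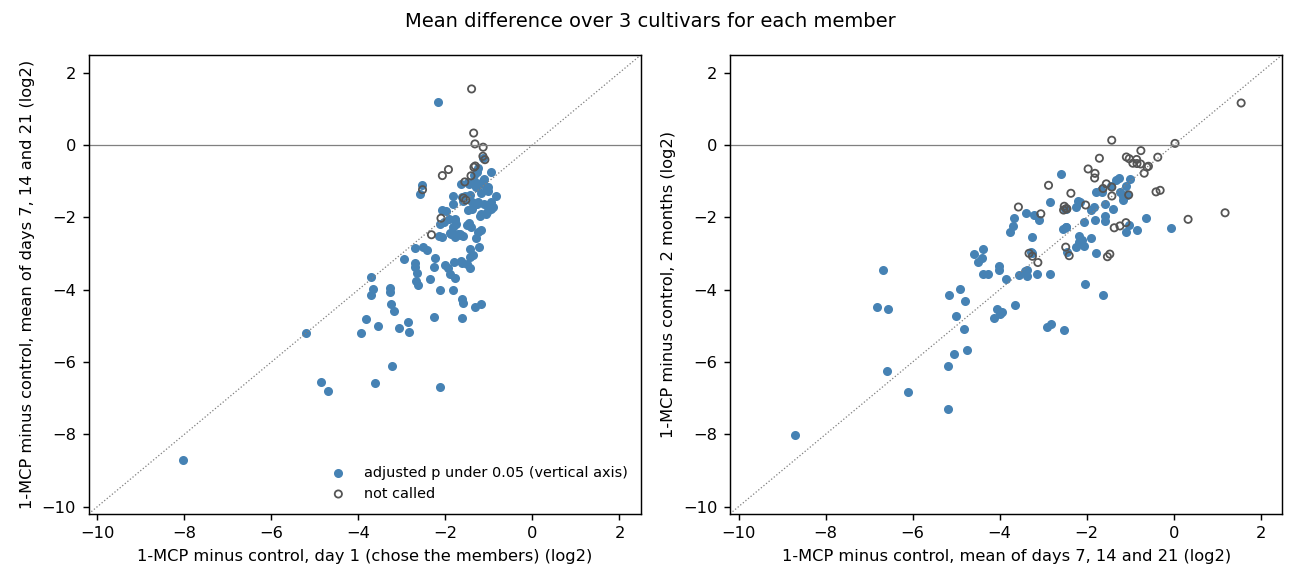
Each point is 1 of the 139 members, with the log2 difference between 1-MCP and control fruit averaged over 3 cultivars. The left panel sets days 7 to 21 (vertical) against day 1, and the right panel sets 2 months (vertical) against days 7 to 21; filled points have a limma adjusted p under 0.05 for the vertical axis, and the dotted line marks equal values. In the left panel 121 filled points lie below 0 and 1 above it.

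Of the 139 entries, 79 matched a RefSeq gene table, in 76 genes, and 4 of them carried a gene symbol or symbol-like synonym. These 4 are ETR2, CIPK27, SCL5 and SCL11, and the other matched genes have locus numbers with no stated product, so no function is given for them. SCL5 and SCL11 are described because they have symbols, a choice made after their values were seen.

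ETR2 (LOC103436150, XM_008358087), an ethylene receptor and thus a target of 1-MCP itself, was the 1 member on the list of ethylene perception and early signalling genes. In Golden Delicious its log2 level was 10.57 at harvest, 9.56, 10.01, 9.61, 9.43 and 10.13 in control fruit from day 1 to 2 months, and 7.03, 6.68, 7.09, 8.14 and 6.60 in 1-MCP fruit. In Granny Smith it was 9.53 at harvest, 9.64, 10.02, 9.93, 9.84 and 9.72 in control fruit, and 6.38, 6.23, 6.61, 7.20 and 6.07 in 1-MCP fruit. In Fuji it was 9.37 at harvest, 8.61, 9.10, 8.99, 8.84 and 8.85 in control fruit, and 6.26, 5.66, 6.01, 6.59 and 5.31 in 1-MCP fruit. Every treated value lay below every control and harvest value of all 3 cultivars, and in each cultivar the treated level was highest at day 21. The difference was -2.84 over days 7 to 21 (SE 0.251, limma adjusted p = 0.00303) and -3.57 at 2 months (SE 0.0408, limma adjusted p = 0.000689; 0.0598 with no filter on low values). Against harvest, ETR2 fell in 1-MCP fruit by 3.13 (limma adjusted p = 0.000949), while control fruit differed by -0.29 (limma adjusted p = 0.472).

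The other early signalling genes found by symbol, ETR1 and CTR1, were neither members nor called. ETR1, another receptor, had day 1 differences (Golden Delicious, Granny Smith, Fuji) of 0.31, 0.01 and 0.22, and -0.21 over days 7 to 21 (limma adjusted p = 0.231). CTR1, the kinase that receptors hold active to keep the pathway off, had -0.14, -0.11 and 0.31 at day 1 and -0.17 over days 7 to 21 (limma adjusted p = 0.187). Of the 3 tested genes of perception and early signalling, 1 was thus lower over those days (all entries 15.8%), with a median of -0.21 against 0.03 for all entries. That gene is ETR2, a member chosen for its low day 1 difference. ACO1 was no early member, with day 1 differences of -0.56, 0.23 and -0.18 in the same order, but over days 7 to 21 its 1-MCP minus control difference was -6.96 (SE 0.446, limma adjusted p = 0.002). In Granny Smith treated fruit stayed near the harvest level on these days (5.04, 5.17 and 6.03 against 5.67) while control fruit had 12.25, 13.61 and 13.77. At 2 months its difference was -2.50 (limma adjusted p = 0.0675).

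SCL5 (XM_008343958) belongs to the scarecrow-like group of GRAS transcription regulators. In Golden Delicious its log2 level was 7.05 at harvest, 7.11, 7.55, 7.19, 6.95 and 7.85 in control fruit, and 5.47, 5.15, 5.80, 6.30 and 4.66 in 1-MCP fruit. In Granny Smith it was 5.56 at harvest, 6.66, 8.69, 9.23, 8.99 and 8.48 in control fruit, and 4.52, 5.79, 5.83, 6.31 and 4.38 in 1-MCP fruit. In Fuji it was 6.79 at harvest, 6.93, 8.28, 7.86, 8.20 and 9.61 in control fruit, and 5.37, 6.33, 6.41, 6.70 and 5.39 in 1-MCP fruit. Treated and control values did not overlap within any cultivar, and the treated level was lowest at 2 months in Golden Delicious and Granny Smith. The difference was -2.04 over days 7 to 21 (SE 0.481, limma adjusted p = 0.0148; 0.0634 without Fuji). At 2 months it was -3.84 (SE 0.326, limma adjusted p = 0.00488; 0.0623 without Granny Smith, 0.103 with no filter). A second SCL5 entry, of another identifier type, had -1.99 and -3.81, and reads of the entries may be shared.

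SCL11 (XM_008386726), of the same group, behaved otherwise. Its day 1 differences, with the cultivars in the same order, were -1.55, -1.39 and -1.30. Over days 7 to 21 they were -1.20, -0.19 and -1.17, a mean of -0.85 (SE 0.333, limma adjusted p = 0.0585), which passed without Granny Smith (0.0383) and without day 14 (0.0361). At 2 months the mean was -0.40 (limma adjusted p = 0.333). A second SCL11 entry, with a higher mean level (4.57 against 4.44), did not meet the rule. Its mean differences were -0.94 at day 1, -0.79 over days 7 to 21 and -0.14 at 2 months.

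CIPK27 (LOC103452734, XM_008392265), a CBL-interacting protein kinase of calcium signalling, had day 1 differences of -2.00, -1.06 and -0.89 in the same order. Over days 7 to 21 they were -1.15, -1.47 and -0.49, a mean of -1.04 (SE 0.287, limma adjusted p = 0.0235). That call was lost without Golden Delicious (0.0968), Granny Smith (0.0844) or day 7 (0.0645), and with no filter (0.0555). At 2 months the differences were -1.35, -2.19 and -0.60, a mean of -1.38 (SE 0.458, limma adjusted p = 0.0674). Of the 7 tested genes of protein kinases and calcium signalling found by symbol, 1 was lower over days 7 to 21 (all entries 15.8%). That gene is CIPK27 itself. On the same list 2 were higher (all entries 18.5%), and the median was 0.23.

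No other list found by symbol held a member, but for most of their genes the rule fixed this in advance. All tested genes of the auxin, cell wall, aroma and terpene, and carotenoid lists have entries of another identifier type, which the rule left out. PSY2 of the carotenoid list, BGAL101 of the cell wall list and NAC1 of the NAC list have such entries and met the same day 1 thresholds. For genes with only such entries, a list without members therefore says nothing on whether they were lower at day 1. AP2D11, ERF1, NAC11, GBSSIa and HSF2, on the ERF and AP2, NAC, starch and sugar, and defence lists, have XM_ entries. These did not meet the rule. Over days 7 to 21, when 15.8% of all tested entries were called lower and 18.5% higher, limma called 2 of 5 ERF and AP2 factors lower and 1 higher, 2 of 7 NAC factors lower, 4 of 10 auxin genes higher, and 2 of 4 cell wall genes lower and 1 higher. It called 3 of 8 genes of lipid-derived aroma and terpenes lower, 1 of 2 carotenoid genes lower, 1 of 7 starch and sugar genes lower and 3 higher, and 2 of 8 defence genes lower and 1 higher. The median difference was highest in the auxin list, at 0.52, and lowest of these in the carotenoid list, at -1.65.

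**Figure D4:**
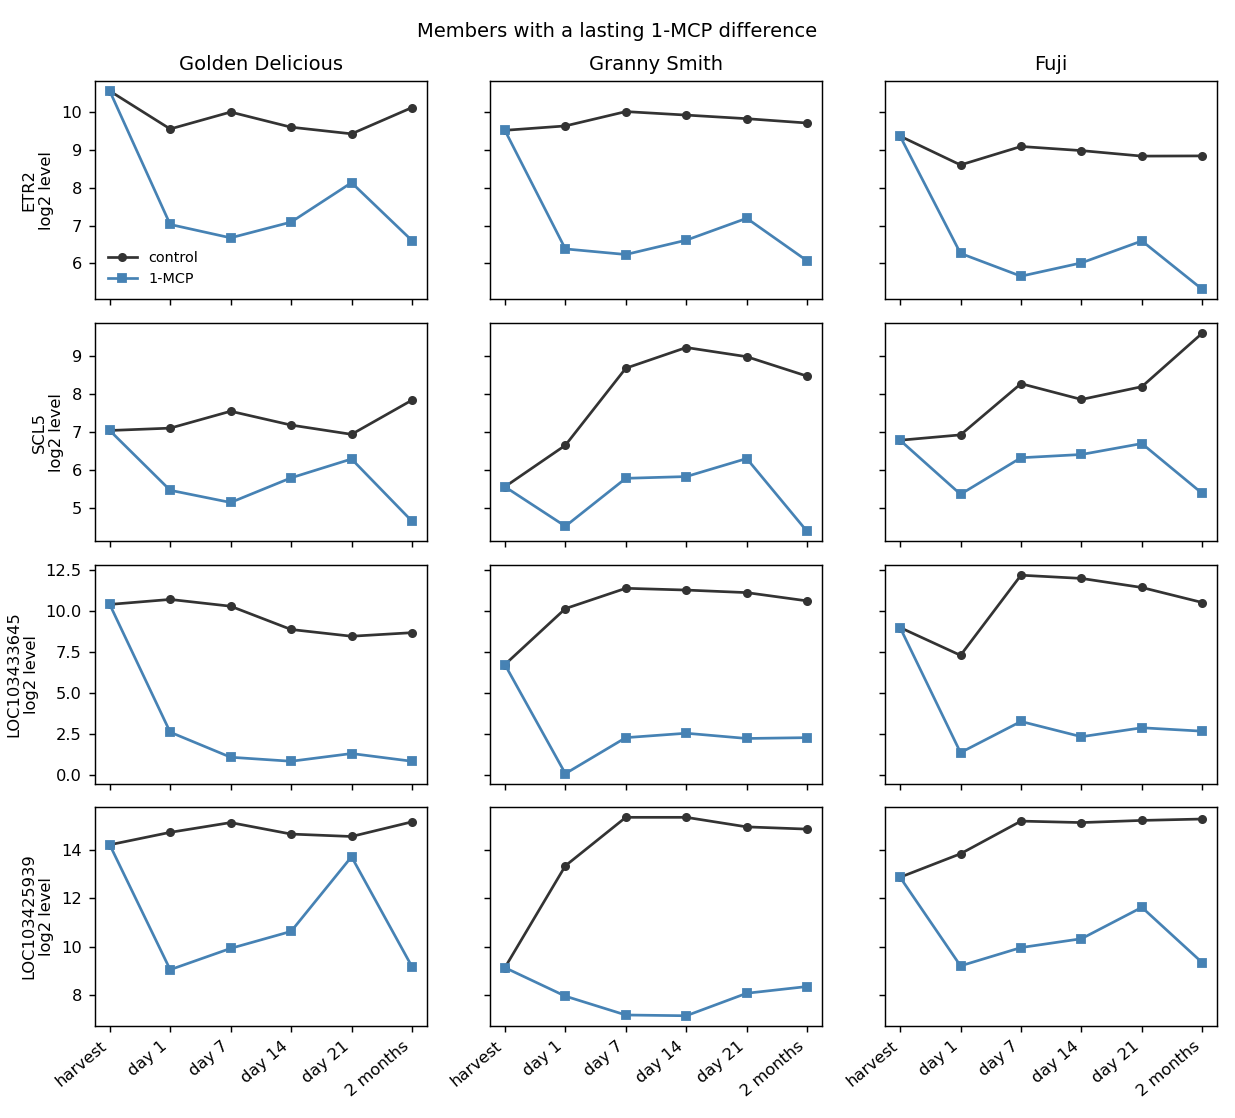
Log2 level (vertical) against time after harvest in control fruit (circles) and 1-MCP fruit (squares) for ETR2, SCL5, LOC103433645 and LOC103425939, 1 row per gene and 1 column per cultivar; each point is the authors' mean of a group. Treated points lie below control points at every time, and LOC103425939 in treated Golden Delicious is 10.63 at day 14, 13.70 at day 21 and 9.18 at 2 months.

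LOC103433645 (XM_008371911) had the lowest difference of all members at day 1, over days 7 to 21 and at 2 months. In Golden Delicious its log2 level was 10.43 at harvest, 10.73, 10.32, 8.90, 8.49 and 8.71 in control fruit, and 2.64, 1.11, 0.86, 1.33 and 0.86 in 1-MCP fruit. In Granny Smith it was 6.76 at harvest, 10.17, 11.41, 11.31, 11.15 and 10.64 in control fruit, and 0.11, 2.30, 2.57, 2.25 and 2.30 in 1-MCP fruit. In Fuji it was 9.02 at harvest, 7.32, 12.21, 12.02, 11.46 and 10.54 in control fruit, and 1.39, 3.29, 2.36, 2.90 and 2.70 in 1-MCP fruit. So it went within 1 day from a well detected transcript at harvest to a few reads in treated fruit, and stayed there to 2 months. The difference was -8.70 over days 7 to 21 (SE 0.284, limma adjusted p = 0.000667) and -8.01 at 2 months (SE 0.165, limma adjusted p = 0.00058; 0.0774 with no filter). Its size depends on treated values near the floor, and it was -7.70 over days 7 to 21 with 4 added before the log2.

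LOC103425939 (XM_008364039) had day 1 differences between -5.65 and -4.62. In Golden Delicious 1-MCP fruit its level was 9.05, 9.93, 10.63, 13.70 and 9.18 from day 1 to 2 months, against 14.71, 15.11, 14.64, 14.54 and 15.14 in control fruit. In Granny Smith it was 7.96, 7.19, 7.16, 8.08 and 8.36, against 13.33, 15.32, 15.32, 14.93 and 14.84. In Fuji it was 9.21, 9.96, 10.33, 11.62 and 9.34, against 13.82, 15.17, 15.11, 15.20 and 15.26. Control fruit of all cultivars were thus near one level from day 7 on and treated fruit well below it, except in Golden Delicious at day 21, where the difference was -0.83. The difference was -5.19 over days 7 to 21 (SE 1.31, limma adjusted p = 0.0162; 0.0742 without Fuji) and -6.12 at 2 months (SE 0.18, limma adjusted p = 0.00058; 0.0793 with no filter).

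Golden Delicious 1-MCP fruit at day 21 stood apart over the set as a whole. There 89 members (64.0%) lay above their treated level at both day 14 and 2 months, against 28.1% of all tested entries. In Granny Smith 59 members (42.4%) did so, against 28.6%, and in Fuji 54 (38.8%), against 24.2%. At day 21 the median difference from control was -1.37 there, against -2.36 in Granny Smith and -1.91 in Fuji. ACO1 in treated Golden Delicious was 6.82 at day 14, 10.04 at day 21 and 14.13 at 2 months, so it went on up where the members came down again. This is 1 group mean, and its part in the lower counts of day 21 was not tested. Without Golden Delicious the count at day 21 was 89.

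Several members had a deeper difference over days 7 to 21 than at day 1, which was not tested because the rule used day 1. LOC103405594 (XM_008344605) had day 1 differences (Golden Delicious, Granny Smith, Fuji) of -3.09, -3.45 and -4.30, and -2.93, -8.87 and -7.96 over days 7 to 21. At harvest its level was 9.66 in Golden Delicious, 6.33 in Fuji and 0.97 in Granny Smith, and at day 14 control fruit had 11.07, 10.98 and 10.95 in that order. Granny Smith 1-MCP fruit stayed between 1.00 and 2.83 to 2 months, near its harvest level, and Golden Delicious 1-MCP fruit lay between 7.13 and 9.12. The mean over days 7 to 21 was -6.59 (SE 1.85, limma adjusted p = 0.0204; 0.0798 without Granny Smith, 0.104 without Fuji, 0.0519 with no filter).

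XM_008345184, an entry without a gene in the table, had the largest positive change of its difference from days 7 to 21 to 2 months among the members. Its control and harvest levels lay between 11.45 and 12.89 in all cultivars. Golden Delicious 1-MCP fruit had 8.87, 6.59, 5.82, 6.48 and 9.38 from day 1 to 2 months. Granny Smith had 10.36, 5.13, 5.77, 5.32 and 9.86, and Fuji had 10.03, 6.47, 5.16, 5.43 and 8.20. The treated level was thus down at day 1, further down at days 7 to 21, and partly back at 2 months in every cultivar. The difference was -6.69 over days 7 to 21 (SE 0.306, limma adjusted p = 0.00153) and -3.47 at 2 months (SE 0.501, limma adjusted p = 0.0126; 0.0636 without Granny Smith, 0.123 with no filter). The change of 3.21 between them did not pass, as no member did.

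LOC103436057 (XM_008374466) had a difference of -6.81 over days 7 to 21 (SE 0.634, limma adjusted p = 0.00304). Granny Smith 1-MCP fruit lay between 0.00 and 0.53, so the size of this difference depends on treated values near the floor. At 2 months its control levels were lower too, at 5.56, 4.57 and 4.64 in the order above, against 8.28, 8.44 and 9.34 at day 14. LOC103431472 (XM_008369627) rose in control fruit over days 7 to 21 by 2.37 against harvest (limma adjusted p = 0.0212), while 1-MCP fruit differed from harvest by -0.21. Its 1-MCP difference was -2.58 over those days (SE 0.239, limma adjusted p = 0.00311) and -0.79 at 2 months (SE 0.0139, limma adjusted p = 0.0435). The 2-month call was lost without any 1 cultivar (0.0725 without Golden Delicious, 0.152 without Granny Smith, 0.218 without Fuji), with no filter (0.0808) and without the trend and robust options (0.0846).

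LOC103401649 (XM_008340366) had a difference of -6.10 over days 7 to 21 (SE 0.398, limma adjusted p = 0.00205). Its size depends on treated values near the floor, such as -0.33 and -0.67 in Fuji at days 7 and 14. In Fuji 1-MCP fruit the level was at the floor of -1, which stands for a value of 0, at 2 months, so no fold is given there. XM_008348234, an entry without a gene in the table, had -5.17 (SE 0.148, limma adjusted p = 0.000667). LOC103400603 (XM_008339255) had -3.65 over days 7 to 21 (SE 0.187, limma adjusted p = 0.00153) and -4.42 at 2 months (SE 0.129, limma adjusted p = 0.000641; 0.0793 with no filter). In these genes, as in LOC103445790 at -5.05 (SE 0.85, limma adjusted p = 0.00763) and LOC103439597 at -4.82 (SE 0.38, limma adjusted p = 0.00266), the difference had one sign in all 3 cultivars. LOC103439597 too had treated values near the floor, such as -0.67 in Golden Delicious at day 14.

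In LOC103447125 control fruit stood higher at 2 months than at day 21. This gene (XM_008386300) had control levels (same order) of 7.59, 7.16 and 8.37 at day 21, and 11.10, 10.74 and 10.14 at 2 months. Its 1-MCP fruit lay between 2.38 and 4.35 at all times after harvest in all cultivars. The difference was -5.19 over days 7 to 21 (SE 0.618, limma adjusted p = 0.00453) and -7.29 at 2 months (SE 0.113, limma adjusted p = 0.00058; 0.0598 with no filter). The change between them, -2.10, did not pass (limma adjusted p = 0.129), and in Fuji the difference was -7.61 at day 7 and -7.15 at 2 months. LOC103446600 (XM_008385740) had a difference of -1.62 over days 7 to 21 (limma adjusted p = 0.0114) and of -6.05, -3.16 and -3.20 at 2 months in the same order. The mean at 2 months was -4.14 (SE 0.956, limma adjusted p = 0.029; 0.1 without Granny Smith, 0.0973 without Fuji, 0.166 with no filter, 0.0752 without the trend and robust options, 0.0519 with 4 added).

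No lower call over days 7 to 21 was made for 18 members, and 14 of these had a mean below 0. LOC103402969 (XM_008341764) was the 1 member called higher. Its day 1 differences (Golden Delicious, Granny Smith, Fuji) were -2.51, -3.10 and -0.91, and over days 7 to 21 they were 0.95, 0.78 and 1.81. The mean was 1.18 (SE 0.319, limma adjusted p = 0.0223), and the call was lost without Golden Delicious (0.0665), Granny Smith (0.0561), Fuji (0.057) or day 21 (0.0588), and with no filter (0.0535). At 2 months it was lower in treated fruit of each cultivar again, with a mean of -1.88 (limma adjusted p = 0.0727).

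LOC103433738 (XM_008372018) was a member whose control level came down after harvest. Golden Delicious had 6.96 at harvest, then 6.50, 4.94, 4.44, 2.72 and 7.40 in control fruit, against 5.05, 4.87, 4.47, 3.58 and 3.70 in 1-MCP fruit. Granny Smith had 5.76 at harvest, then 5.87, 4.35, 2.13, 3.10 and 6.37, against 4.23, 4.91, 3.63, 3.52 and 4.53. Fuji had 8.32 at harvest, then 7.35, 4.17, 3.88, 2.87 and 6.74, against 6.38, 4.40, 3.06, 3.13 and 6.12. Both treatments were low at days 14 and 21, and at 2 months controls were above harvest in Golden Delicious and Granny Smith and below it in Fuji. Against harvest it fell over days 7 to 21 by 3.39 in control fruit (limma adjusted p = 0.0188) and by 3.06 in 1-MCP fruit (limma adjusted p = 0.0322), and the difference between treatments was 0.33 (limma adjusted p = 0.275).

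LOC103416592 (XM_008354830) had -0.06 over days 7 to 21 (limma adjusted p = 0.862), a sign that turned without Golden Delicious (0.20), Granny Smith (0.0050) or day 7 (0.38). At 2 months it had -2.29 (limma adjusted p = 0.0272), which was lost without Golden Delicious (0.0526), Granny Smith (0.0854) or Fuji (0.0622), with no filter (0.157) and without the trend and robust options (0.0725). LOC103405001 (XM_008343971) had day 1 differences of -0.89, -1.94 and -1.37 and later ones of 1.86, 2.73 and 0.06 in the order above. Their mean was 1.55 (SE 0.788, limma adjusted p = 0.0832), and it passed without Fuji, at 2.30 (limma adjusted p = 0.0371). XM_008359035, without a gene in the table, had 0.03 over days 7 to 21 (limma adjusted p = 0.9) and 0.04 at 2 months (limma adjusted p = 0.964). Its sign turned over days 7 to 21 without Golden Delicious (-0.08), day 7 (-0.06) or day 14 (-0.08), and at 2 months without Golden Delicious (-0.66) or with differences centred (-0.02).

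**Figure D5:**
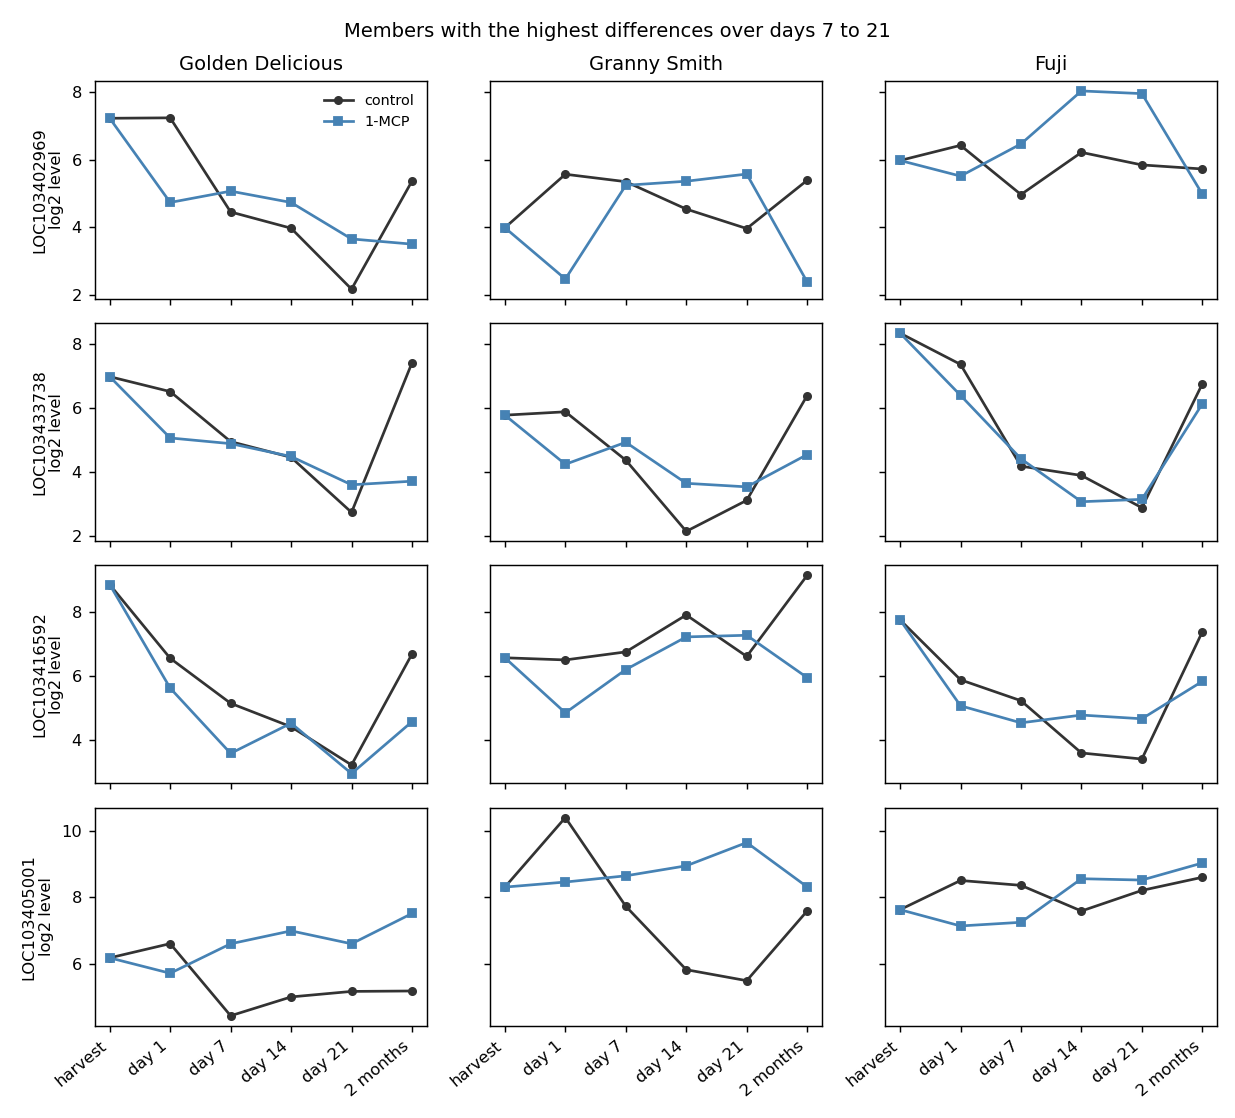
Log2 level (vertical) against time after harvest in control fruit (circles) and 1-MCP fruit (squares) for LOC103402969, LOC103433738, LOC103416592 and LOC103405001, 1 row per gene and 1 column per cultivar; each point is the authors' mean of a group. All are lower in 1-MCP fruit at day 1 by the rule, and over days 7 to 21 their mean differences were 1.18, 0.33, -0.06 and 1.55.

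The size of the 1-MCP difference was compared between cultivars with days 7, 14 and 21 as 3 units, which share the fruit of a cultivar. The p-values of this comparison therefore measure the spread between days only, not between fruit of a cultivar. Between Golden Delicious and Granny Smith 25 members differed by limma, 14 with a smaller loss in Golden Delicious or a higher value (all entries 2.19%) and 11 the other way (1.74%). Between Golden Delicious and Fuji 43 differed, 30 higher in Golden Delicious (4.17%) and 13 lower (3.4%). Between Granny Smith and Fuji 31 differed, 15 higher in Granny Smith (3.33%) and 16 lower (3.46%). The counts rested on single days: without day 14 they were 0, 8 and 9, without day 7 the first was 53, and without day 21 the last was 10. All 3 counts were 0 with no filter and 0 without the trend and robust options. LOC103405594 showed the largest of these differences, at 5.94 between Golden Delicious and Granny Smith (limma adjusted p = 0.00349).

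Of the 76 member genes, 8 fell into 4 pairs at most 3 places apart in the order of the gene table; the share of such pairs among all genes was not computed. LOC103451598 and LOC103451599 are next to each other and had differences of -3.86 and -3.38 over days 7 to 21. LOC103436057 and LOC103436054 are neighbours too, with -6.81 and -3.26. The others are LOC103433172 with LOC103433171, at -1.08 and -2.45, and LOC103409658 with LOC103437535, at -1.91 and -1.67. The library kit keeps no strand, and neighbouring genes with similar sequence may share reads, which was not tested. Among the matched entries 3 genes had 2 member entries each. Over days 7 to 21 their differences were -6.81 and -6.57 in LOC103436057, -2.81 and -2.91 in LOC103436977, and -4.40 and -4.49 in LOC103455522. Counting 1 entry per gene left 136 members with 118 lower calls. The 60 entries without a gene in the table were each counted singly there. Some of them have consecutive identifiers and similar levels and may be transcripts of 1 gene, so the number of genes may be lower than 136.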

How the data were processed

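Per the labels' protocols, non-directional libraries were sequenced from cortex RNA, and per the submitters' processing notes reads were processed with STAR 2.5.1a and HTSeq; genome build and annotation are not given in the sources used here. The deposited values, named FPKM by the authors, are log2 group means: undone, low values (log2 under 2.5) come out whole (relative tolerance 0.0003), with 0 entered as 0.5 (floor -1). In Fuji the control mean of day 14 and the 2-month 1-MCP mean rest on 2 libraries each and the other 31 columns on 3, so 97 of 99 libraries entered. No SD over fruit exists, depth is unknown, and tests planned per library gave way to tests over cultivars.

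Entries that reached log2 2 in 3 or more of the 33 columns were tested (20999; by the rule, all 139 members pass). Differences per cultivar were tested with limma 3.58.1 in R 4.3.3 (trend and robust options, two-sided, Benjamini-Hochberg over all entries); differences between cultivars used 3 days as units. The code was tested on simulated data. The members, lists and named-gene rule were chosen with earlier results of these data known. Named are members in a gene list, the 10 lowest at day 1, the 10 lowest over days 7 to 21, the 5 highest there, and the 5 largest changes each way at 2 months; of 26 entries so found, 9 had no gene in the table and 3 of those are printed. Names come from a RefSeq table of assembly GDT2T_hap1, matched without version (79 of 139); a locus number counted as a name, and lists were matched by symbol alone. Sequences, promoters and product names were not analysed here. Alternatives were another pseudocount (4 added on the linear scale), no filter, a stricter filter (log2 3 reached in 6 columns), centring, limma without trend and robust options, leaving out cultivars or days, other rule thresholds (-1, -0.6, floor of 5) and 1 entry per gene.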

Additional observations from a re-analysis of the deposited data

Results flagged for a closer look

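The listed results are those where the 1-MCP difference of a named member over days 7, 14 and 21 differed between 2 cultivars by limma, with the 3 days as units. Their p-values measure the spread between days only, not between fruit of a cultivar. Each value is the difference of 2 log2 differences (1-MCP minus control), so a positive value means a smaller loss, or a larger gain, in the cultivar named first. Over all members the calls between cultivars were 0, 8 and 9 without day 14, and 0 with no filter on low values or without limma's trend and robust options.

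Golden Delicious exceeded Granny Smith by 5.94 in LOC103405594 (adjusted p = 0.00349), 4.38 in LOC103425939 (adjusted p = 0.0383) and 0.92 in XM_008345184 (adjusted p = 0.0421). Against Fuji, Golden Delicious had 5.03 in LOC103405594 (adjusted p = 0.000913) and 1.62 in LOC103447125 (adjusted p = 0.00594), and it was lower in LOC103402969 at -0.86 (adjusted p = 0.0421) and in LOC103416592 at -1.16 (adjusted p = 0.0107).

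Granny Smith exceeded Fuji by 2.68 in LOC103405001 (adjusted p = 0.0198), 2.02 in LOC103447125 (adjusted p = 0.00191) and 1.03 in LOC103446600 (adjusted p = 0.0159). It was lower than Fuji by -3.20 in LOC103425939 (adjusted p = 4.33e-05), -2.67 in LOC103445790 (adjusted p = 0.000469), -1.36 in SCL5 (adjusted p = 0.00758), -0.98 in CIPK27 (adjusted p = 0.0268) and -0.91 in LOC103405594 (adjusted p = 0.0183).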

How the results depend on the processing

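The 121 lower calls over days 7 to 21 stayed within 1.5 times in every alternative (89 to 125 with 1 cultivar or day left out), and the single higher call ranged from 0 to 1 and was 0 with no filter or a rule threshold of -1. With no filter on low values, lower calls were 66 at day 7, 26 at day 14, 0 at day 21 and 0 at 2 months; the cause was not tested. Without the trend and robust options they were 24 at day 21 and 45 at 2 months. Leaving out 1 cultivar gave 21 to 89 at day 21 and 5 to 95 at 2 months, and 0 to 1 deeper difference at 2 months with a cultivar or day left out.

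Against harvest, leaving out a cultivar or day gave 5 to 37 higher and 0 to 6 lower calls in control fruit, and 33 to 92 lower and 0 to 6 higher in 1-MCP fruit. With no filter these were 0, 0, 46 and 0 in that order. Without trend and robust options control fruit had 9 higher and 1 lower, and 1-MCP fruit 1 higher. A rule threshold of -1 gave 2 lower in control and 1 higher in 1-MCP fruit, and -0.6 gave 52 higher in control and 6 higher in 1-MCP fruit. Differences between cultivars ranged with 1 day left out over 0 to 53 members (Golden Delicious and Granny Smith), 8 to 54 (Golden Delicious and Fuji) and 9 to 36 (Granny Smith and Fuji), and all were 0 with no filter or without trend and robust options.

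Of 418 alternative values of the named members 351 kept direction and side of the threshold, 56 lost and 3 gained a call, and 8 reversed. Of 33 such results past the threshold, 19 lost the call with no filter, 14 without Granny Smith, 10 without Fuji, 6 without the trend and robust options and 4 without Golden Delicious. The reversed values belong to differences near 0. With 1 cultivar or day left out, LOC103416592 ranged over days 7 to 21 from -0.383 to 0.378, and XM_008359035 ranged from -0.0808 to 0.234 over days 7 to 21 and from -0.664 to 0.620 at 2 months, where centring gave -0.0151. No paired analysis was possible because the columns are group means and carry no replicate numbers. Depth is unknown, and treated values near the floor limit how exactly the lowest differences are known.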
